A study of Mus musculus with 9 samples.

Results

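Complex I (NADH:ubiquinone oxidoreductase) is the entry point of electrons from NADH into the mitochondrial respiratory chain. The genes described here are its nuclear-encoded subunits and the assembly factors named with them, in mouse macrophages held in standard or low oxygen. They were chosen by name: every protein-coding mouse gene whose symbol begins with Nduf. There were 46 such genes among 34866 genes listed, of which 21782 were protein-coding. Of the 46 genes, 7 encode core subunits, 29 encode accessory subunits and 8 encode assembly factors (Ndufaf). Ndufa4 and Ndufa4l2 were kept apart from these classes. The 4 Nduf pseudogenes in the list were left out. The rule by name used no measured value, although the members were chosen with earlier results of these data known.

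The enzyme has a peripheral arm in the matrix and an arm in the inner membrane. In the N module of the peripheral arm, NADH is oxidised at a flavin and electrons pass along iron-sulphur clusters. In the Q module they reach ubiquinone, and the membrane arm pumps protons. The core subunits of both modules are nuclear-encoded, whereas those of the membrane arm come from the mitochondrial genome (mt-Nd genes). Accessory subunits surround the core and are needed for assembly or stability, and assembly factors help to build the enzyme without remaining in it. Ndufa4 was named as a complex I subunit and was later assigned to cytochrome c oxidase (complex IV). Ndufa4l2 is its paralogue and is known as a gene induced by the hypoxia-inducible factor HIF-1 in several cell types.

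RNA was sequenced from primary mouse macrophages grown with L929-conditioned medium, a source of the macrophage growth factor CSF-1. The 9 libraries form 3 groups of 3 replicates: standard oxygen for 7 days, acute hypoxia (standard oxygen, then 3 hours at 1% oxygen) and chronic hypoxia (7 days at 1% oxygen). All groups shared the culture medium, and the labels name no genotype, strain, age or tissue of origin and do not say whether replicates came from separate animals. The p-values therefore measure the spread between these samples, which may be technical. Levels are in TPM (a length-corrected share of each library's transcripts), so the depth behind a value is unknown.

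The 32 subunits with a RefSeq promoter window (250 bases before to 50 after the start site, GRCm38.p6) were searched on both strands for the letters of factors known from respiratory genes. The stretches below are shown because AAGATGGC, a core motif of the transcription factor YY1, was found in 7 of the 32 subunits (21.9%). Of all 27018 genes with a window 3.19% held it, as did 5.95% of the 8504 genes with a mean of at least 1 TPM. It was also present in 1 of 7 assembly factors with a window, Ndufaf8. All 8 matches read in the direction of transcription and began between 10 and 38 bases after the start site. The motif contains the letters ATG, and whether these mark the start of translation in the 8 genes was not examined. The share in the subunits can therefore not be read as a share of YY1 sites. In each stretch the capitals mark the motif.
Ndufa3: cgccaagaacAAGATGGCcgggagtaag
Ndufa9: attgtgggagAAGATGGCggccgccgtc
Ndufb8: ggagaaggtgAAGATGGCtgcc
Ndufc1: cctgcggaacAAGATGGCgccgtccgta
Ndufs4: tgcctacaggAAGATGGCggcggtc
Ndufs6: ggtcaccggcAAGATGGCggcggtgct
Ndufs7: ggccgaggccAAGATGGCggcgctggcg
Ndufaf8: ggcagggcccAAGATGGCggcgccctcg
On the plus strand lie Ndufa3 (chr7:3617385-3617412), Ndufs7 (chr10:80249463-80249490) and Ndufaf8 (chr11:120098934-120098961). On the minus strand lie Ndufa9 (chr6:126849098-126849125), Ndufb8 (chr19:44555393-44555414), Ndufc1 (chr3:51408916-51408943), Ndufs4 (chr13:114388045-114388069) and Ndufs6 (chr13:73328433-73328459). The ETS letters CCGGAAG were in 4 of 32 subunits (12.5%), against 9.93% of all genes with a window and 22.5% of those with a mean of at least 1 TPM. The SP1 letters GGGCGG were in 15 of 32 (46.9%), against 38.2% and 69.6%. The palindromic consensus of NRF1 was in 1 of 32 (3.12%), against 1.07% and 2.62%, and its first part, GCGCA, in 21 of 32 (65.6%), against 32.9% and 57.2%. Of the 7 assembly factors 2 held the ETS letters, 6 the SP1 letters, 2 the NRF1 consensus and 4 GCGCA. ETS and YY1 letters can overlap where CCGGAAG runs into AAGATGGC. Among the members only Ndufaf8 held both, beginning at -8 and 10 from the start site, so they did not overlap there. Overlap between the other motifs was not examined. A match describes letters only and is not evidence of binding.

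The core of the hypoxia response element, ACGTG or GCGTG, was in 16 of 32 subunits (50%) and in 6 of 7 assembly factors (85.7%), against 46.7% of all genes with a window and 68.7% of those with a mean of at least 1 TPM. Its occurrences are shown for the 4 genes whose levels in chronic hypoxia passed the test when libraries were paired across groups and not rescaled. The core is in capitals on either strand. Ndufa6 holds both orientations in the same stretch, and Ndufv3 has 4 stretches, given from 5′ to 3′.
Ndufa4: agcggcttaGCGTGtgtcctaat
Ndufa6: tggcaccgcGCGTGcgCACGCtgaaggggc
Ndufs8: tggaaaaagGCGTGagaagctcg
Ndufv3: ggaggacccCACGCtttcccgaa
Ndufv3: cagttagggGCGTGgccttaagg
Ndufv3: gattggtgaACGTGgacgcgggg
Ndufv3: tggggtggtGCGTGtgca
The minus-strand stretches are at chr6:11907402-11907424 (Ndufa4), chr15:82354246-82354275 (Ndufa6) and chr19:3912792-3912814 (Ndufs8). The plus-strand stretches of Ndufv3 are at chr17:31520006-31520028, chr17:31520046-31520068, chr17:31520117-31520139 and chr17:31520147-31520164. In Ndufa4 the core began 35 bases after the start site, whereas in Ndufs8 it began at -31. Short letters of this kind are common in such windows, as the background shares show. When the paired libraries were also rescaled by median of ratios, the calls of Ndufa6, Ndufs8 and Ndufv3 were lost. Ndufa4, Ndufab1, Ndufc1 and Ndufa13 then passed against acute hypoxia, and the windows of Ndufab1, Ndufc1 and Ndufa13 held no core. Members that did not pass also held cores: Ndufa7 had 5 and 6 in its overlapping windows, and Ndufv1 had 3. Their log2 fold changes in chronic hypoxia against standard oxygen were -0.01 and -0.08. A link between the core and the levels was not tested.

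The number of genes at 1 TPM or more was 10724 to 11208 per library. All 8 macrophage markers were present, with a summed level of 56607 to 74792 TPM, of which Lyz2 alone was 52793 to 70403 TPM, while 6 fibroblast markers summed to at most 0.327 TPM. Of 8 genes known to respond to low oxygen, 7 were higher after chronic hypoxia by the test used below, and 0 of 8 passed it in acute hypoxia (6 at an unadjusted p under 0.05, and 5 with the code block). Digits in the sample descriptions are shared by 1 library of each group, and their meaning is not stated. They are called sample codes here: code A is replicate 1 of each group, code B is standard oxygen replicate 3 with replicate 2 of both hypoxia groups, and code C is standard oxygen replicate 2 with replicate 3 of both hypoxia groups. The libraries of code C stood apart: the macrophage gene Mertk was at 2.21 to 3.37 TPM in them and at 21.8 to 33.3 TPM in the other 6. Among 7 neutrophil markers the summed level was 898 to 1595 TPM at standard oxygen, 941 to 1908 TPM in acute hypoxia and 260.0 to 585 TPM in chronic hypoxia. Nearly all of it was S100a8, while Ly6g, Mpo, Elane and S100a9 were each below 1 TPM in all 9 libraries. Camp had the opposite direction, with means of 0.832, 0.709 and 1.82 TPM in the same order (limma adjusted p = 0.279 for chronic hypoxia against standard oxygen). Ngp had means of 2.56, 2.435 and 0.110 TPM (limma adjusted p = 0.156 for that comparison), and its chronic hypoxia libraries lay below all others. In the code C libraries Ngp was at 0.368, 0.221 and 0.123 TPM. In chronic hypoxia the macrophage markers Csf1r and Itgam were at 1.49 and 1.42 times their standard oxygen level (limma adjusted p = 0.0933 for both). Cd14, Fcgr1 and Adgre1 were at 0.709, 0.738 and 0.762 times theirs (limma adjusted p = 0.198, 0.535 and 0.367). Cd68, Lyz2 and Mertk were at 1.0, 0.979 and 1.14 times. Against acute hypoxia, Cd14 was at 0.541 times the level (limma adjusted p = 0.0486). In bulk RNA, fewer cells of a type and less RNA per cell cannot be told apart.

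All 45 members other than Ndufa4l2 had a mean of at least 1 TPM in each comparison and were tested with limma, which fits each gene on log2(TPM + 1) and moderates its variance with that of the other genes. Changes are log2 fold changes on that scale, and p-values were adjusted over all genes tested with a threshold of 0.05. Over the 9 libraries the subunits ranged from 18.3 to 339 TPM in mean level (median 105, an 18.5-fold range), and the assembly factors from 7.36 to 23.6 TPM (median 11.4). The accessory subunits with the highest mean levels were Ndufa3 (339 TPM), Ndufa7 (242 TPM) and Ndufa2 (240.4 TPM). The lowest were Ndufa11 (18.3 TPM), Ndufb4 (22.5 TPM) and Ndufs4 (44.3 TPM). For Ndufb4, 35.2% of its 75-base stretches also occur in the processed pseudogene Ndufb4c, which was listed at 193 to 260 TPM, so the split of reads between them is uncertain. Ndufa7 was at 244 ± 2.07 TPM with standard oxygen, 242 ± 6.08 TPM in acute hypoxia and 242 ± 18.4 TPM in chronic hypoxia (SD, n = 3 each), with a 95% interval of -0.24 to 0.22 for chronic hypoxia against standard oxygen. Shared stretches of at least 5% were found for 11 members in all, and 26 of the 36 subunits fell below that share.

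**Figure D1:**
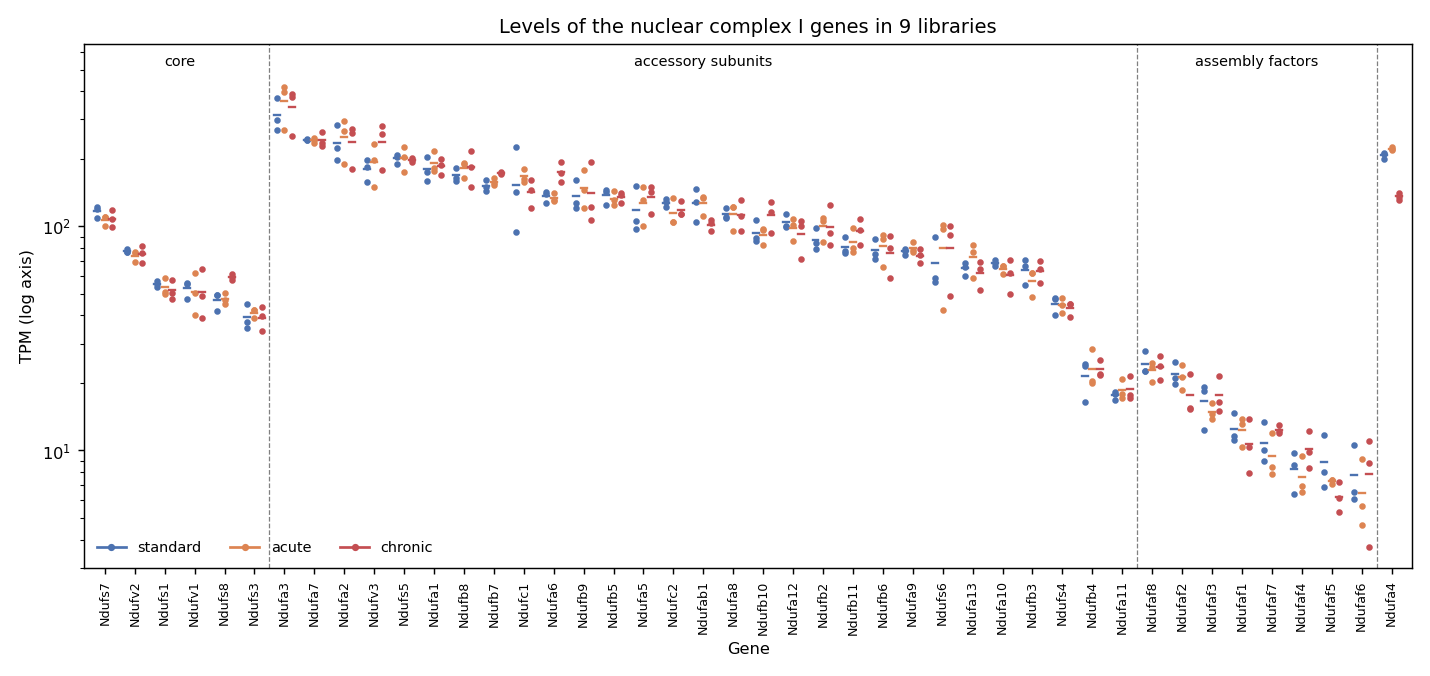
Level of 44 nuclear complex I genes in TPM (log axis) in each of 9 libraries (points, 3 per group) with the group mean (bar), ordered by mean level within class. Subunits lie mostly above the assembly factors, and the 3 chronic hypoxia points of Ndufa4 lie below its other 6.

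Ndufa4 (ENSMUSG00000029632, chr6:11900292-11907497, minus strand) was the only member that fell in chronic hypoxia in limma without a block on all libraries. Under alternatives given below, Ndufab1, Ndufc1, Ndufa13 and Ndufaf2 also passed with lower values. Its level was 209.7, 199.9 and 213 TPM in the 3 standard oxygen libraries and 218, 225 and 221 TPM in acute hypoxia, but 132, 141 and 136 TPM in chronic hypoxia. All 3 chronic hypoxia libraries lay below all 6 others, and acute hypoxia lay slightly above standard oxygen without overlap. The means were 208 ± 6.86, 221 ± 3.59 and 136 ± 4.74 TPM (SD, n = 3 each). Against standard oxygen, chronic hypoxia was at 0.655 times the level, which is -0.61 ± 0.0861 (SE) on the log2 scale, with a limma adjusted p of 0.0293. Against acute hypoxia it was at 0.615 times the level, or -0.70 ± 0.0847 (SE) on the log2 scale, and the limma adjusted p was 0.0428. Acute hypoxia differed from standard oxygen by 0.09 on the log2 scale (95% interval -0.09 to 0.28, limma adjusted p = 0.973).

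With the sample code as a block the limma adjusted p for Ndufa4 was 0.0119 against standard oxygen and 0.00969 against acute hypoxia, and the level was lower in 3 of 3 code pairs in both. Without the code C libraries it was 0.00689 and 0.00795, with log2 fold changes of -0.63 and -0.70. After rescaling of the libraries by median of ratios the log2 fold changes were -0.79 and -0.85, with adjusted p of 0.0287 and 0.0359. The limma call against standard oxygen was lost without standard oxygen replicate 1 (adjusted p = 0.165) or 3 (0.152) or chronic hypoxia replicate 1 (0.116) or 2 (0.146). Against acute hypoxia it was lost without chronic hypoxia replicate 1 (0.163) or 2 (0.232) or acute hypoxia replicate 1 (0.195), 2 (0.236) or 3 (0.0522). Ndufa4 shared no 75-base stretch with another listed gene. S100a8 was also lower in every chronic hypoxia library (258 to 582 TPM) than in the others (895 to 1906 TPM), and its part in the result was not tested.

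Ndufa4l2 (ENSMUSG00000040280, chr10:127514967-127517154, plus strand) was listed at 0 in all 9 libraries, those of acute and chronic hypoxia included. No fold change can be given for it. Because the depth is unknown, no upper limit can be attached to these zeros.

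The number of members past the test was small in every comparison. In acute hypoxia against standard oxygen 0 of 45 passed limma, beside 0.0273% of all genes tested, and 0 of 45 had an unadjusted p under 0.05, beside 7.14% of all genes. In chronic hypoxia against standard oxygen 1 of 45 passed (2.22%), beside 2.69% of all genes, and 3 had an unadjusted p under 0.05, beside 22.9%. In chronic against acute hypoxia 1 of 45 passed, beside 0.695% of all genes, and 4 had an unadjusted p under 0.05, beside 20.8%. In both cases that member was Ndufa4, and 0 of 36 subunits and 0 of 8 assembly factors passed (subunits at an unadjusted p under 0.05: 2 and 3).

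Libraries of the same code deviated from their group means together, and the code was taken as a pairing across groups. Code C stood apart, and libraries of code A were not correlated with those of code B. The match within code A and within code B therefore rests on the shared digits. With the code as a block in limma, 2 of 45 members passed in chronic hypoxia against standard oxygen, beside 18.4% of all genes. In chronic against acute hypoxia 4 of 45 passed, beside 15.5% of all genes, while the count in acute hypoxia stayed at 0, beside 0.71%. The added members were Ndufa6 in both comparisons and Ndufs8 and Ndufv3 against acute hypoxia, all higher in chronic hypoxia. With rescaling as well as the block, 1 of 45 passed against standard oxygen, beside 11.5% of all genes, and 4 of 45 against acute hypoxia, beside 9.77%, a share of members near that of all genes. Without the code C libraries 0, 3 and 5 of 45 passed in the 3 comparisons, beside 2.95%, 21.1% and 16.3% of all genes. By the groups' ranges alone, chronic hypoxia lay above standard oxygen for 3 of 45 members and below for 1, beside 24.2% and 5.39% of all genes tested. It lay above acute hypoxia for 4 members and below for 2, beside 22.3% and 5.5%. Acute hypoxia lay above standard oxygen for 1 member and below for 0, beside 7.63% and 4.85%.

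**Figure D2:**
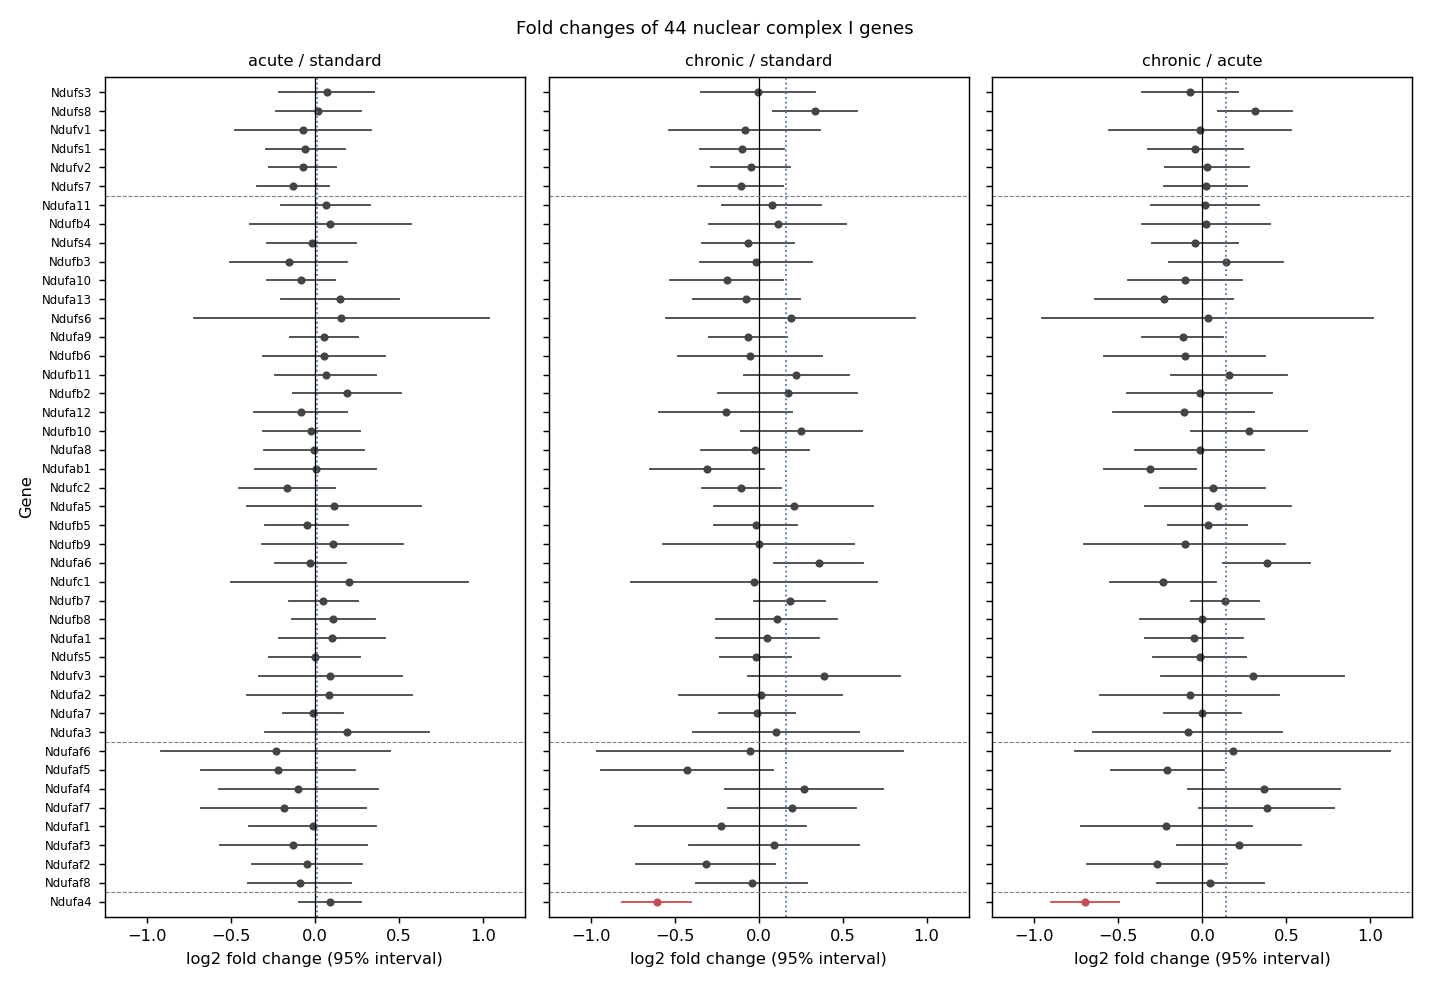
Log2 fold change with its 95% interval for 44 genes in 3 comparisons (limma without a block, log2(TPM + 1)), with core subunits, accessory subunits, assembly factors and Ndufa4 from top to bottom. The dotted line is the median of all genes tested, red marks an adjusted p under 0.05, and only Ndufa4 is red, at -0.61 and -0.70 in the panels with chronic hypoxia.

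The log2 fold changes of the 36 subunits had a median of 0.04 in acute hypoxia against standard oxygen, beside 0.01 for all genes tested. In chronic hypoxia their median was -0.01 against standard oxygen and -0.01 against acute hypoxia, while all genes tested had medians of 0.16 and 0.14. Of the 36, 27 lay below the all-gene median in the first of these and 31 in the second. After rescaling by median of ratios, which brings the all-gene medians to 0.00, the subunit medians were -0.19 and -0.17. The subunits that share less than 5% of their stretches gave medians of 0.03, 0.00 and 0.00 in the same 3 comparisons.

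The precision behind these values was moderate. For 31 of 36 subunits the 95% interval of acute hypoxia against standard oxygen lay within a 1.5-fold change in either direction. For chronic hypoxia this held for 24 subunits against standard oxygen and 26 against acute hypoxia, and with the code block for 32 and 36. A p that missed the threshold does not show that a subunit did not differ, and the widest interval in acute hypoxia, that of Ndufs6, ran from -0.72 to 1.04.

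Core subunits of the N module, which oxidises NADH, had no member past the test. Ndufv1 carries the flavin that accepts electrons from NADH, and its level was 52.9 ± 4.64 TPM at standard oxygen, 51.0 ± 11 TPM in acute hypoxia and 50.8 ± 12.7 TPM in chronic hypoxia. Ndufv2, an iron-sulphur subunit, was at 77.6 ± 1.58, 73.8 ± 4.07 and 75.3 ± 6.43 TPM in the same order. Ndufs1, the iron-sulphur subunit with the longest protein of the peripheral arm, was at 55.4 ± 1.67, 53.4 ± 5.01 and 51.8 ± 5.15 TPM (SD, n = 3 for each). The chronic hypoxia intervals against standard oxygen were -0.53 to 0.37 for Ndufv1, -0.28 to 0.19 for Ndufv2 and -0.35 to 0.15 for Ndufs1 on the log2 scale. The groups overlapped for all 3 genes.

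Among the Q module subunits, which pass electrons to ubiquinone, Ndufs8 had the highest fold change in chronic hypoxia. Ndufs8 (ENSMUSG00000059734, chr19:3908863-3912774, minus strand), an iron-sulphur subunit, was at 41.7, 49.5 and 49.4 TPM at standard oxygen, 45.1, 47.0 and 50.4 TPM in acute hypoxia and 59.1, 57.5 and 61.0 TPM in chronic hypoxia. Each chronic hypoxia library exceeded all 6 others. The log2 fold change was 0.31 ± 0.0913 (SE) against acute hypoxia, with a limma adjusted p of 0.138 without and 0.0453 with the code block. Against standard oxygen it was 0.33 ± 0.105 (SE), with adjusted p of 0.132 and 0.0538. After rescaling the values were 0.16 in both, with adjusted p of 0.396 and 0.429.

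For Ndufs7 and Ndufs3, also of the Q module, the groups overlapped. Ndufs7, an iron-sulphur subunit, was at 117 ± 7.05, 107 ± 5.10 and 108 ± 9.41 TPM at standard oxygen, acute and chronic hypoxia. Ndufs3 was at 39.2 ± 5.23, 41.1 ± 1.98 and 39.1 ± 4.85 TPM in the same order, with 28.2% of its stretches shared with other listed genes.

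**Figure D3:**
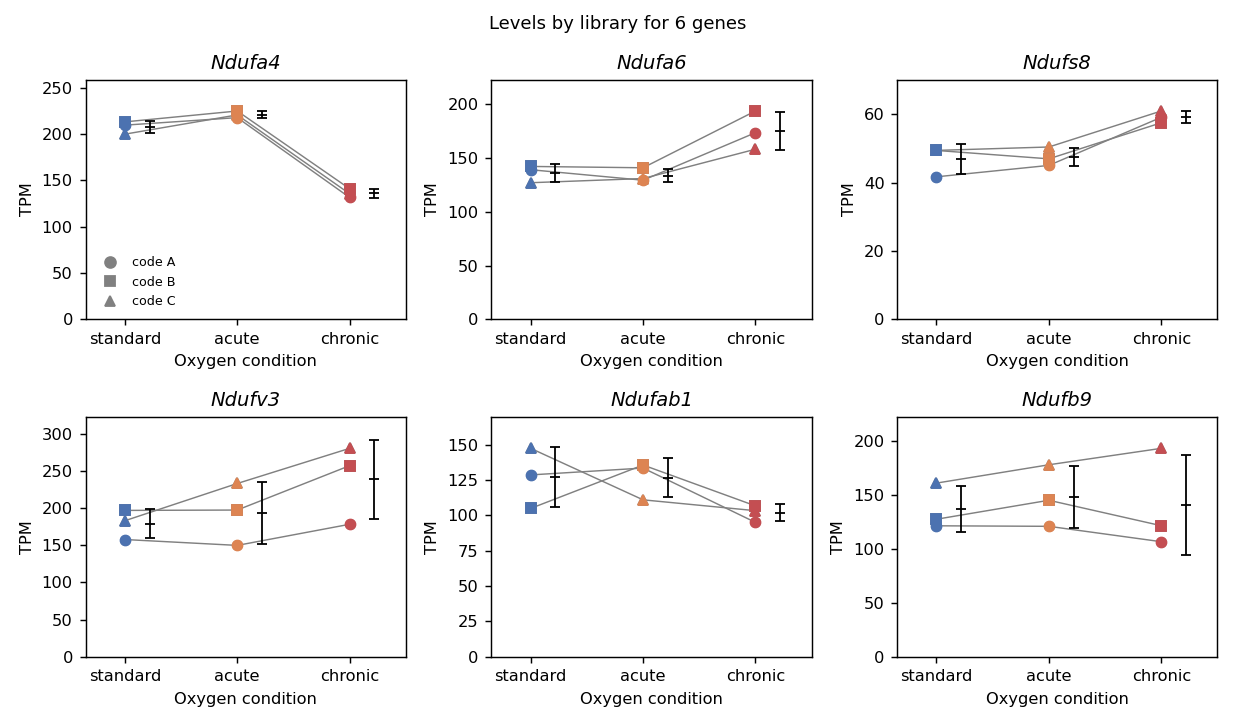
TPM of 6 genes in each library by oxygen condition, with lines joining libraries of the same sample code (circle A, square B, triangle C) and the group mean ± SD beside the points (n = 3). Ndufa4 is lower in chronic hypoxia in all 3 code pairs, Ndufa6, Ndufs8 and Ndufv3 are higher in all 3, and the code C library is the highest in every group for Ndufb9. All 3 chronic libraries are below all 3 acute libraries for Ndufab1.

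Ndufa6 was the accessory subunit with the smallest adjusted p among those higher in chronic hypoxia. The gene (ENSMUSG00000022450, chr15:82350140-82354322, minus strand) encodes a LYR-motif protein that binds the mitochondrial acyl carrier protein. Its level was 139, 127 and 142 TPM at standard oxygen, 129, 141 and 131 TPM in acute hypoxia and 173, 194 and 158 TPM in chronic hypoxia. The chronic hypoxia libraries lay above all the others. The log2 fold change against standard oxygen was 0.36 ± 0.11 (SE), with a limma adjusted p of 0.13 without and 0.0282 with the code block. Against acute hypoxia it was 0.38 ± 0.108 (SE), with 0.131 and 0.0296. Without the code C libraries the adjusted p was 0.0334 and 0.0355. After rescaling the log2 fold changes were 0.18 and 0.23, and with the code block as well the adjusted p was 0.14 and 0.109, so these calls were lost.

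Ndufv3 (ENSMUSG00000024038, chr17:31520115-31531331, plus strand), an accessory subunit of the N module, had the highest fold change of any subunit in chronic hypoxia against standard oxygen. It was at 158, 183 and 197 TPM at standard oxygen, 149.9, 197 and 233 TPM in acute hypoxia and 178, 257 and 281 TPM in chronic hypoxia. The groups overlapped, since the code A library was the lowest in each, but chronic hypoxia was the higher in 3 of 3 code pairs. The log2 fold change was 0.39 ± 0.19 (SE) against standard oxygen, with a limma adjusted p of 0.276 without and 0.0585 with the code block. Against acute hypoxia it was 0.30 ± 0.227 (SE), with 0.498 and 0.0442. Without the code C libraries and the block the log2 fold change against acute hypoxia was 0.31 (limma adjusted p = 0.365), and after rescaling it was 0.14 (0.216 with the code block).

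Ndufb10, a membrane arm subunit, had the next highest fold changes among accessory subunits in chronic hypoxia. Its levels were 93.4 ± 11.1 TPM at standard oxygen, 91.9 ± 8.27 TPM in acute hypoxia and 112 ± 17.5 TPM in chronic hypoxia. The log2 fold changes were 0.25 ± 0.151 and 0.28 ± 0.144 (SE), with limma adjusted p of 0.363 and 0.326, and the groups overlapped.

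At the low end stood Ndufab1, the mitochondrial acyl carrier protein that Ndufa6 and Ndufb9 bind. It was at 129, 147 and 105 TPM at standard oxygen, 133, 136 and 111 TPM in acute hypoxia and 95, 107 and 103 TPM in chronic hypoxia. All 3 chronic hypoxia libraries lay below those of acute hypoxia but overlapped standard oxygen. The log2 fold change against acute hypoxia was -0.31 ± 0.114 (SE), with a limma adjusted p of 0.202 without and 0.0807 with the code block. It was 0.0347 without the code C libraries and 0.0432 with the code block after rescaling, where the log2 fold change was -0.47. The gene shares 10.9% of its stretches with other listed genes. Its value thus has the opposite sign to that of its partner Ndufa6 in both comparisons with chronic hypoxia.

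Ndufc1 and Ndufa13 were the other subunits with the lowest values against acute hypoxia. Ndufc1, of the membrane arm, was at 142, 225 and 94.2 TPM at standard oxygen, 181, 158 and 162 TPM in acute hypoxia and 161, 121 and 145 TPM in chronic hypoxia. Its widest spread was at standard oxygen, and chronic hypoxia was the lower in 3 of 3 code pairs with acute hypoxia. The log2 fold changes against acute hypoxia were -0.23 for Ndufc1 and -0.23 for Ndufa13 (also known as GRIM-19), with limma adjusted p of 0.361 and 0.494. With the code block after rescaling they were -0.39 and -0.38, and the adjusted p was 0.048 and 0.0358. Ndufa13 shares 25.6% of its stretches with the overlapping gene Tssk6 on the opposite strand.

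Ndufa10 and Ndufa12 gave the lowest values against standard oxygen after Ndufab1. Ndufa10 went from 68.6 ± 2.35 to 60.7 ± 10.4 TPM, a log2 fold change of -0.19 (limma adjusted p = 0.465). Ndufa12, a subunit of the peripheral arm, had 104 ± 7.89 TPM at standard oxygen and 92.2 ± 18.4 TPM in chronic hypoxia, with -0.20 (limma adjusted p = 0.523). In both genes the code C pair went the other way from the other 2 pairs.

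After 3 hours of low oxygen the accessory subunits spanned a log2 fold change of -0.17 to 0.21, with no member past limma. The highest were Ndufc1 (0.21), Ndufa3 (0.19) and Ndufb2 (0.19), and the lowest were Ndufc2 (-0.17), Ndufb3 (-0.16) and Ndufa12 (-0.08). The Ndufc1 value rested on single standard oxygen libraries: it was -0.10 without replicate 3, 0.52 without replicate 2 and 0.54 without the code C libraries. Ndufb2 was higher in 3 of 3 code pairs and Ndufb3 lower in 3 of 3, with limma adjusted p of 0.391 and 0.37 with the code block. For 3 of the 36 subunits all code pairs were higher and for 3 all were lower, beside 20.9% and 16.9% of all genes tested. In chronic hypoxia against standard oxygen all code pairs were higher for 6 of 36 and lower for 0, beside 46.9% and 12.6%. Against acute hypoxia they were higher for 6 and lower for 6, beside 43.5% and 12.9%.

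By family, the 13 Ndufa and Ndufab accessory subunits had medians of 0.06 in acute hypoxia against standard oxygen, -0.01 in chronic hypoxia against standard oxygen and -0.08 in chronic against acute hypoxia. The 10 Ndufb subunits of the membrane arm had medians of 0.06, 0.11 and 0.03. The 4 accessory Ndufs and Ndufv subunits had 0.05, 0.09 and 0.01. In chronic hypoxia against standard oxygen 11 of 13 Ndufa and Ndufab genes lay below the all-gene median, and 6 of 10 Ndufb genes did. Rescaling turned the Ndufb median to -0.07 and -0.13 in the comparisons with chronic hypoxia, and that of the Ndufs and Ndufv genes to -0.09 and -0.15. Apart from Ndufa6, the subunits whose chronic hypoxia libraries all exceeded standard oxygen were Ndufs8 and Ndufb7, 3 of 36 beside 24.2% of all genes tested. For Ndufb7 the levels were 152 ± 8.72 and 172 ± 2.19 TPM (limma adjusted p = 0.269). The 9 accessory subunits not described singly (Ndufa1, Ndufa5, Ndufa8, Ndufa9, Ndufb5, Ndufb6, Ndufb8, Ndufb11 and Ndufs5) had mean levels of 77.2 to 200.1 TPM and log2 fold changes from -0.12 to 0.22 over the 3 comparisons, and the groups overlapped for all 9.

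The assembly factors were expressed below most subunits. All 8 had a negative log2 fold change in acute hypoxia against standard oxygen, from -0.23 (Ndufaf6) to -0.01 (Ndufaf1) in the fit of all libraries, with a median of -0.11 beside 0.01 for all genes, and 0 of 8 passed limma or had an unadjusted p under 0.05. The groups overlapped for each of them, and only Ndufaf6 and Ndufaf7 were lower in 3 of 3 code pairs. The sign was not stable for all 8: Ndufaf1 was at 0.03 without the code C libraries, and with 1 library left out Ndufaf1 reached 0.10 (without acute replicate 2 or standard replicate 2), Ndufaf2 0.04 (acute 1 or standard 3), Ndufaf4 0.02 (standard 2) and Ndufaf8 0.005 (standard 1). In chronic hypoxia the median was -0.05 against standard oxygen and 0.11 against acute hypoxia, beside 0.16 and 0.14 for all genes, and after rescaling it was -0.21 and -0.03.

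Ndufaf5, which modifies an arginine of Ndufs7, and Ndufaf8, which stabilises Ndufaf5, were compared side by side. Ndufaf5 was at 8.05, 11.7 and 6.85 TPM at standard oxygen, 7.41, 7.40 and 7.11 TPM in acute hypoxia and 5.30, 6.17 and 7.23 TPM in chronic hypoxia. It was lower in chronic hypoxia in 3 of 3 code pairs, by -0.43 ± 0.214 (SE) on the log2 scale, with a limma adjusted p of 0.29 without and 0.0888 with the code block. Ndufaf8 was at 24.3 ± 2.94 TPM at standard oxygen and 23.6 ± 2.94 TPM in chronic hypoxia.

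Ndufaf7, a methyltransferase of complex I assembly, was at 9.01, 13.3 and 10.0 TPM at standard oxygen, 8.41, 7.85 and 12.0 TPM in acute hypoxia and 12.0, 12.2 and 13.0 TPM in chronic hypoxia. Chronic hypoxia lay above acute hypoxia without overlap. The log2 fold change between them was 0.38 ± 0.168 (SE), with a limma adjusted p of 0.257 without and 0.0989 with the code block, and 0.0335 without the code C libraries. Ndufaf3 and Ndufaf4, which act together on the Q module, had 0.22 and 0.37 in the same comparison, each higher in 3 of 3 code pairs, with limma adjusted p of 0.466 and 0.321.

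Ndufaf2, a paralogue of Ndufa12 that takes its place during assembly, was at 21.1, 19.9 and 24.8 TPM at standard oxygen and 15.3, 15.5 and 22 TPM in chronic hypoxia. The code C library was the high one of chronic hypoxia. Chronic hypoxia differed by -0.31 ± 0.172 (SE) on the log2 scale (limma adjusted p = 0.329), and by -0.54 (limma adjusted p = 0.031) when the code C libraries were left out. Ndufaf1, a member of the intermediate assembly complex of the membrane arm, was at 12.5 ± 1.94 TPM at standard oxygen and 10.7 ± 2.98 TPM in chronic hypoxia. Ndufaf6, also needed for early assembly, was at 7.74 ± 2.48 TPM and 7.85 ± 3.76 TPM.

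Other factors that assemble the enzyme were read from a list of 12 genes without the Nduf prefix, of which 11 were measured. In limma without a block 0 of 11 passed in any comparison, and 0, 1 and 2 had an unadjusted p under 0.05 in acute against standard, chronic against standard and chronic against acute, beside 7.14%, 22.9% and 20.8% of all genes. With the code block 0, 1 and 2 of 11 passed, beside 0.71%, 18.4% and 15.5%. With that block Foxred1, an oxidoreductase-like assembly factor, was higher in chronic hypoxia, with log2 fold changes of 0.39 against standard oxygen (adjusted p = 0.048) and 0.47 against acute hypoxia (0.0321). Both calls were lost with the block after rescaling (0.21 and 0.32, limma adjusted p of 0.19 and 0.0944) and, with no block, without the code C libraries (0.37 and 0.42, limma adjusted p of 0.0987 and 0.0507). Its mean was 14.2 ± 2.63 TPM at standard oxygen, 13.4 ± 1.89 TPM in acute hypoxia and 18.9 ± 3.55 TPM in chronic hypoxia. Tmem70, which also serves the ATP synthase, was lower against acute hypoxia with the code block, at 27.7 ± 1.48 against 35.6 ± 0.514 TPM (log2 fold change -0.35, adjusted p = 0.0438). That call held with the block after rescaling (0.0262) and was lost without the code C libraries and the block (0.0625).

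The 7 mitochondrially encoded subunits, which form the core of the membrane arm, had lower values in chronic hypoxia than at standard oxygen. Their summed level was 13330, 16080 and 10750 TPM at standard oxygen, 14970, 11930 and 9996 TPM in acute hypoxia and 7503, 6950 and 10030 TPM in chronic hypoxia. All chronic hypoxia sums were below those of standard oxygen, while the highest of them just exceeded the lowest of acute hypoxia. The 36 nuclear subunits summed to 3934, 4067 and 4295 TPM at standard oxygen, 3752, 4458 and 4498 TPM in acute hypoxia and 3771, 4315 and 4700 TPM in chronic hypoxia. The ratio of mitochondrial to nuclear sums was 1.91 ± 0.269 in chronic hypoxia, against 3.28 ± 0.731 at standard oxygen and 2.96 ± 0.918 after acute hypoxia (SD, n = 3 each).

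**Figure D4:**
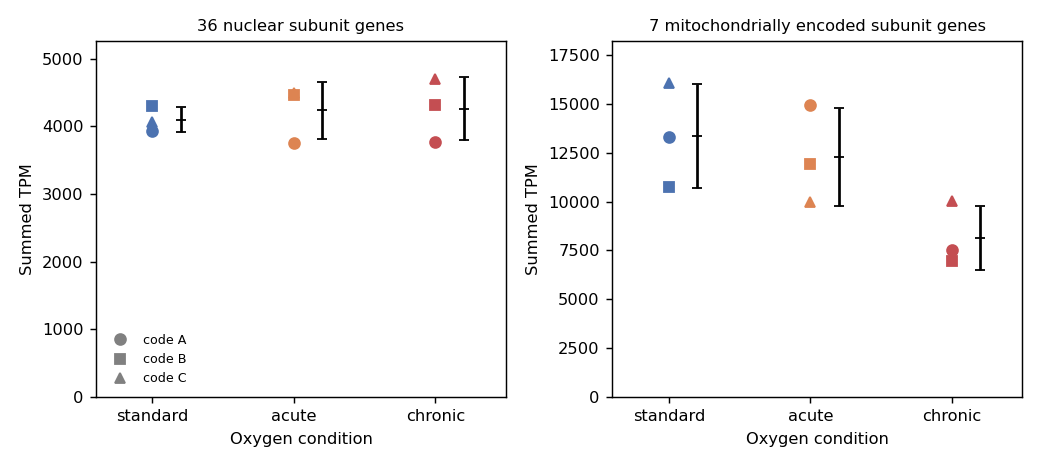
Summed TPM of the 36 nuclear subunit genes (left) and the 7 mitochondrially encoded subunit genes (right) in each library, with the group mean ± SD (n = 3) beside the points and the sample code as marker. The nuclear sums overlap between the 3 groups, and the mitochondrial sums of chronic hypoxia (6950 to 10030 TPM) lie below those of standard oxygen (10750 to 16080 TPM).

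In limma without a block 0 of the 7 mitochondrial genes passed in chronic hypoxia against standard oxygen, beside 2.69% of all genes, and 6 had an unadjusted p under 0.05, beside 22.9%. Their log2 fold changes ran from -0.88 (mt-Nd4l) to -0.57 (mt-Nd3), with adjusted p from 0.0886 to 0.294. With the code block 6 of 7 passed, beside 3.3% of all genes lower, and mt-Nd6 did not (adjusted p = 0.0671). All 7 were lower in 3 of 3 code pairs, beside 12.6% of all genes, and 5 of 7 had no overlap between the groups, beside 5.39%. The code C library was the highest for all 7 genes at standard oxygen and again in chronic hypoxia. Genes that move together in this way are not 7 independent observations. Against acute hypoxia 0 of 7 passed with or without the block (3 at an unadjusted p under 0.05), and 6 of 7 passed without the code C libraries, beside 3.48% of all genes lower. In acute hypoxia against standard oxygen the 7 values lay between -0.20 and -0.09, and 0 of 7 passed or had an unadjusted p under 0.05.

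Several members differed more by sample code than by oxygen. Ndufaf6 was 1.74 times higher in the mean of the code C libraries than in that of the other 6 (9.15 to 11.1 against 3.72 to 8.75 TPM) and Ndufb9, another LYR-motif subunit, 1.43 times higher (161 to 193 against 106 to 145 TPM). In all, 6 of 45 members were above the other 6 libraries in all 3 code C libraries, beside 14.5% of all genes, a share of members near that of all genes. In the code A libraries 6 of 45 members (Ndufa13, Ndufa8, Ndufb3, Ndufb9, Ndufv1 and Ndufv3) were below all others, beside 3.58% of all genes. Ndufv3 was at 149.9 to 178 TPM in these and at 183 to 281 TPM in the rest.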

How the data were processed

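Per the labels' protocols, mRNA libraries (Illumina TruSeq) were sequenced from both ends with 75-base reads. The authors deposited TPM per gene in 3 tables, 1 for each pair of groups, and each sample's values were identical in the 2 tables that held it. The submitters' processing notes name FastQC, STAR, featureCounts and GRCm38. Versions, annotation and strand setting are not given in the sources used here. TPM keeps no depth, so no count test was run, and the replicate spread is the only error.

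Symbols matched 34582 of 34866 identifiers. Gene types and gene coordinates (GRCm38) came from GENCODE M21, which may differ from the authors' annotation. Promoter windows (RefSeq, GRCm38.p6) matched 40 of 46 members. For each comparison, limma 3.58.1 (R 4.3.3; lmFit, then trended eBayes, two-sided) was run on log2(TPM + 1) of the 6 samples concerned, for genes with a mean of at least 1 TPM. Benjamini-Hochberg adjustment ran over all genes tested, with a threshold of 0.05. Fold changes on this scale understate the change of low genes. The script was tested on simulated data.

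Samples of the same code correlated in their deviations from the group means (mean r over genes 0.435 for acute and standard, 0.445 for chronic and standard, 0.536 for chronic and acute, lowest 0.375). Same-numbered titles gave -0.117, -0.133 and 0.536. The codes were therefore taken to pair the samples, and the fit without a block remained the main one. Alternatives were other pseudocounts, filters and scalings, 1 fit of all 9 samples, both blocks, and left-out libraries.

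Named genes were Ndufa4, Ndufa4l2, the core subunits, the assembly factors, any member past the threshold, and the 3 accessory subunits at either end of level and of each fold change. Ndufb7, Ndufs6, Ndufb9 and the genes listed by sample code were named after their values were seen. The members and lists were chosen with earlier results of these data known. 1 member is counted in the totals but not reported singly here.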

Additional observations from a re-analysis of the deposited data

Results flagged for a closer look

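In limma without a block on all libraries, Ndufa4 differed between the 2 exposures. Against standard oxygen its log2 fold change was 0.09 ± 0.0765 (SE) after 3 hours of low oxygen and -0.61 ± 0.0861 (SE) after 7 days. The difference between these effects, which is the chronic against acute comparison, was -0.697 on the log2 scale with a limma adjusted p of 0.0428. That call was lost without a filter on low values (limma adjusted p = 0.0562) and without the eBayes trend (0.0568). It was also lost when some single libraries were left out, with a limma adjusted p of up to 0.236. The 2 effects share the standard oxygen libraries, and the direct comparison does not use them.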

How the results depend on the processing

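Depth is unknown, so no value has a counting error. In acute hypoxia against standard oxygen the count of members past the threshold was 0 under all 18 alternatives. In chronic hypoxia against standard oxygen the count of 1 became 0 without the eBayes trend and with a replicate block by title number, 2 with a replicate block by sample code and 3 without the code C libraries, and ranged from 0 to 1 when each replicate was left out. The subunit median of -0.01 moved to -0.19 with median-of-ratios rescaling, to -0.16 with quantile normalization and to -0.19 with the code block and rescaling together. In chronic against acute hypoxia the count of 1 became 0 without a filter on low values and without the trend, 4 with a replicate block by title number or by sample code, 4 with the code block and rescaling (beside 9.77% of all genes), and 5 without the code C libraries, and ranged from 0 to 1 when each replicate was left out. The title number and the code give the same block there. The subunit median moved to -0.17 with rescaling and to -0.17 with the code block and rescaling. The 4 genes under the code block with rescaling were Ndufa4, Ndufab1, Ndufc1 and Ndufa13, whereas under the code block alone they were Ndufa4, Ndufa6, Ndufs8 and Ndufv3. No called value changed sign. Of 1782 values for single genes under the alternatives, 1753 stayed on their side of the threshold, 16 moved past it and 13, all of Ndufa4, fell short of it. The cause was not tested, except that the left-out fits hold fewer samples. Rescaling also moved the split of all calls in chronic hypoxia against standard oxygen, from 232 higher and 66 lower to 115 higher and 119 lower, and in chronic against acute hypoxia from 61 higher and 16 lower to 33 higher and 48 lower.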
